A study of Homo sapiens with 6 samples.

Results

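The replication-dependent histone genes supply the bulk histones of dividing cells, and 46 of them were described here in HT1080 cells given SW-138 or SW-113. They are the rows of the deposited count table whose name carries the older histone cluster prefix (HIST1H to HIST4H), without pseudogenes and with a total of at least 60 estimated read counts over the 6 libraries. Of 60675 gene rows, 89 carried such a name. Of these 19 were left out as pseudogenes, 18 by annotation and HIST2H3PS2 by its name alone, and of the other 70 genes 46 reached the minimum. HIST2H3PS2 (now H3-7) is annotated as coding and had 2148 counts, so by annotation alone it would be a further H3 member. It stood at 9.25, 8.33 and 10.8 CPM (counts scaled to 1e6 per library) in SW-138 libraries and 8.63, 7.61 and 9.20 CPM in SW-113 libraries (edgeR adjusted p = 0.442). By class the 46 members were 2 of 6 linker histone H1 genes, 13 of 17 H2A, 14 of 18 H2B, 7 of 14 H3 and 10 of 15 H4 genes. The rule used total counts over all libraries and not the comparison between compounds.

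The series was set up to evaluate how selective inhibitors of the lysine deacetylase KDAC6 (HDAC6) are. HT1080, an established human fibrosarcoma line of wild-type genotype as labelled, received 1 µM SW-138 (3 libraries) or 1 µM SW-113 (3 libraries) for 48 h. Whether the 3 libraries of a compound stem from independent cultures is not stated, so the p-values rest on a spread that may be technical. Total RNA from frozen pellets was depleted of ribosomal RNA, a step that does not select for a poly(A) tail. No vehicle group is among the samples used here, so a gene higher in SW-138 may have been raised by SW-138, lowered by SW-113 or both, and these cannot be told apart.

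Replication-dependent histone genes are transcribed in S phase, when newly copied DNA has to be wrapped into nucleosomes. H2A, H2B, H3 and H4 form the nucleosome core and H1 binds the linker DNA between cores. Their mRNAs as a rule have no introns and end, without a poly(A) tail, in a conserved stem-loop. SLBP binds this stem-loop and the U7 snRNP guides the cut that makes the end, while NPAT, a target of cyclin E and its kinase, promotes their transcription. Many genes encode each class, some of them the same protein, and most lie in clusters on chromosomes 6 and 1.

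The stem-loop is shown because it defines these mRNAs and was not used to choose the genes. In GENCODE transcripts, 31 members had at least 30 annotated bases after the stop codon, and 28 of these held a 16-base hairpin of the known form, with arms of 6 bases and a loop of 4, at 23 to 68 bases after the stop codon (median 37.0). The 5 forms found are given below, arms in capitals, each with a gene that carries it.
HIST1H2AC: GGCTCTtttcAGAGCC
HIST1H4B: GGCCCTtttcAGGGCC
HIST2H4B: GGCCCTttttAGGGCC
HIST1H2BC: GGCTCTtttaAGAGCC
HIST1H2AG: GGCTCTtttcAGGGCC
The first form was shared by 16 members of H2A, H2B and H3, the second by 5 H4 genes, the third by HIST1H4I, HIST2H4A and HIST2H4B, the fourth by 3 H2B genes, and the last was found in HIST1H2AG alone. Of 5 family genes under the minimum with enough annotated bases, 3 held one of these forms too. Among members with enough annotated bases, HIST1H1E, HIST1H4C and HIST1H2BJ had no match in 57, 51 and 569 bases after the stop codon. A missing match describes only the annotated bases and the form searched for.

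All 10 H4 members encode 1 and the same protein through 9 distinct coding sequences. Between pairs of H4 coding sequences (312 bases), identity ran from 79.5% up to the identical pair HIST2H4A and HIST2H4B, with a median of 83.3%. The 13 H2A members encode 9 proteins, the 14 H2B members 11, the 7 H3 members 2 and the 2 H1 members 2. The first 90 coding bases of 5 H4 genes show how far genes for an identical protein diverge, with capitals at the bases that differ from HIST2H4A.
HIST2H4A: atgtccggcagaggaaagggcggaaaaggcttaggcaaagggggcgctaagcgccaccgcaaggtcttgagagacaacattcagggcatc
HIST2H4B: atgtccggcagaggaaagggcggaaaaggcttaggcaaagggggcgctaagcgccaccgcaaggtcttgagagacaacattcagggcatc
HIST1H4A: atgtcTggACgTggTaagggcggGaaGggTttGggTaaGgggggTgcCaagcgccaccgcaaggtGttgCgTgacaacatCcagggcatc
HIST1H4I: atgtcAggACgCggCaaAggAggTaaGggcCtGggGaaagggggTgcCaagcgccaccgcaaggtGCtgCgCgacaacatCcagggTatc
HIST1H4C: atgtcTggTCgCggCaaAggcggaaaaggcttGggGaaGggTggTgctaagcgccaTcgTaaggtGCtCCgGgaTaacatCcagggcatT
HIST2H4A and HIST2H4B are identical here, whereas HIST1H4A differs at 17, HIST1H4I at 20 and HIST1H4C at 21 of the 90 bases.

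How far reads can be told apart therefore differs between members. Over windows of 150 bases, the labelled read length, 31 members shared no window with another annotated gene and 11 shared at least 50%. HIST2H3A and HIST2H3C shared every window with each other and had the same estimated count in every library, so they carry 1 measurement between them. HIST2H4A shared 92.2% and HIST2H4B 97.0%, each with the other, and HIST2H2AA4 shared 96.4% with HIST2H2AA3, which shared all of its own. HIST1H4J shared 72.8% with HIST1H4K, which was listed at 0. HIST1H2AI shared 51.7% and HIST1H2AJ 76.9%, each with the other. HIST1H2AK lay wholly within windows of HIST1H2BN, which overlaps it on the opposite strand, and HIST1H3D within those of RP1-34B20.21, an overlapping annotated gene on the same strand, at 34.6 ± 2.68 CPM in SW-138 libraries and 35.4 ± 5.11 CPM in SW-113 libraries (SD, n = 3 each). The levels of all these genes are uncertain, because the deposited counts divide shared reads by estimate.

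Levels are given as CPM, on library totals scaled by TMM factors, and between genes per kb of coding sequence. HIST2H4A stood highest at 1286 CPM per kb, followed by HIST2H2AA3 at 965, HIST1H4C at 779 and HIST1H2AC at 760 CPM per kb. HIST2H4A held nearly all reads assigned to its pair, so its place in that order depends on the split. The leading H3 rows were HIST2H3A and HIST2H3C at 583 CPM per kb each and HIST1H3C at 553, and both H1 members lay close by, HIST1H1C at 554 and HIST1H1E at 465 CPM per kb. In H2B, HIST2H2BE (448), HIST1H2BD (448) and HIST1H2BC (445 CPM per kb) led and their libraries overlapped. At the other end, 5 members averaged under 10 CPM, namely HIST1H4A, HIST1H2AK, HIST1H4I, HIST1H2BF and HIST1H2BE. The longest annotated transcript of a member ranged from 312 to 4137 bases, so values per coding kb are highest relative to values per transcript where long noncoding ends are annotated.

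**Figure D1:**
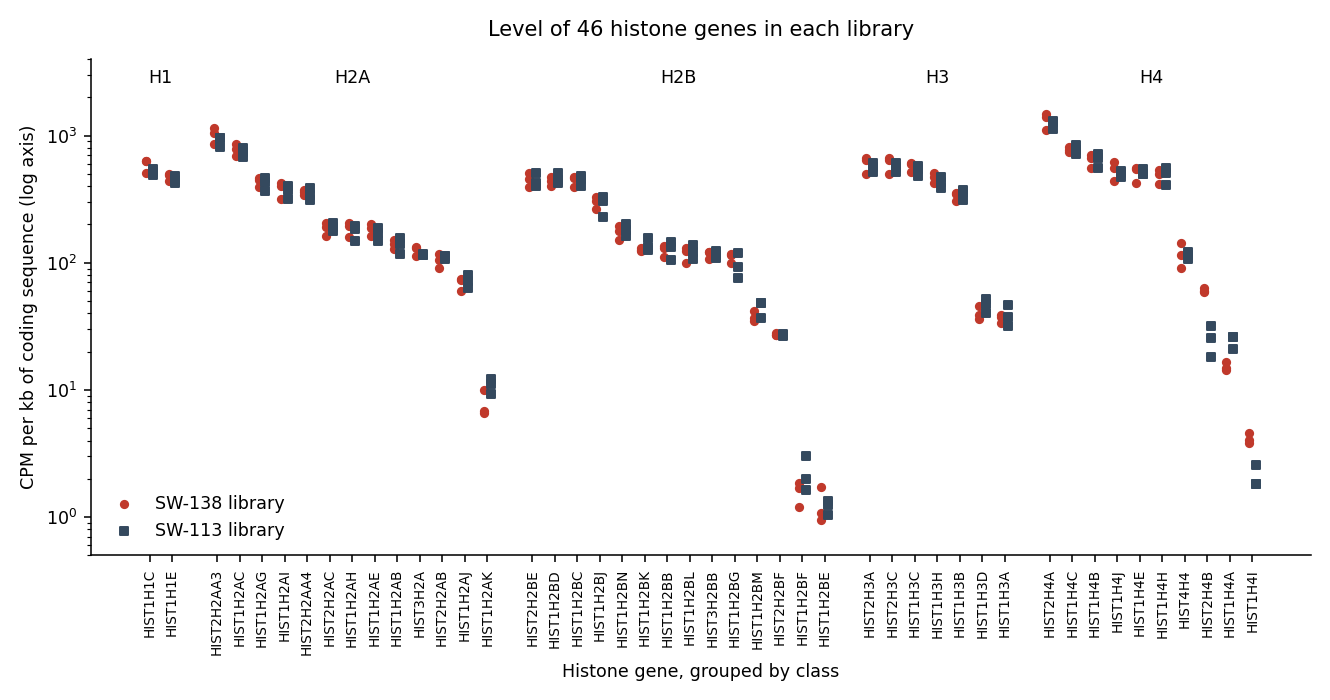
CPM per kb of coding sequence (log axis) for each of the 46 members, grouped by histone class, with 1 circle per SW-138 library and 1 square per SW-113 library. Within a class the genes span from 1286 CPM per kb (HIST2H4A) to 3.11 (HIST1H4I). For 43 of 46 genes the libraries of the 2 compounds overlap, and for 27.9% of all tested genes they do not.

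Near the minimum, the member with the fewest counts was HIST1H2BE with 111.74 estimated counts in all and the next was HIST1H2BF with 174. Just under it lay HIST1H1T, the testis-specific linker histone, with 41 counts, and HIST1H4D with 9. Of the 24 genes under the minimum, 15 were listed at 0 in every library. Among them were HIST1H2AA and HIST1H2BA, which encode testis-specific variants. HIST3H3, another testis histone, had 6 counts. The linker histone genes HIST1H1A and HIST1H1B had 8 counts and 1 count, and HIST1H1D was listed at 0. HIST1H1C and HIST1H1E were thus the 2 linker genes of this family with 60 or more counts.

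On chromosome 6, 15 of the genes under the minimum lay in 2 unbroken runs. In a stretch of 49.2 kb (GRCh38 chromosome 6, 26224199 to 26273356), the 8 genes from HIST1H3E to HIST1H2BI had 3 counts among them, all in HIST1H3E in SW-138 replicate 2, and 7 were listed at 0. The next family genes on either side were HIST1H2AE with 16497 counts and HIST1H4H with 36171. In a second stretch of 28.5 kb (27865355 to 27893843), the 7 genes from HIST1H2AL to HIST1H2BO had 4 counts among them and 5 were listed at 0. Before this stretch lay the overlapping pair HIST1H2AK, with 895 counts, and HIST1H2BN, with 21349, whose annotation runs into the stretch, to 27865798. None of the 8 genes of the first stretch shared a 150-base window with another annotated gene, and in the second stretch only HIST1H2AM and HIST1H3J did, with each other. Why these rows were listed at or near 0 was not tested. Whether the annotation and alignment index behind the counts held each of the genes listed at 0 is not given in the sources used here. A row at 0 thus says how the gene was listed and not that its RNA was lacking.

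**Figure D2:**
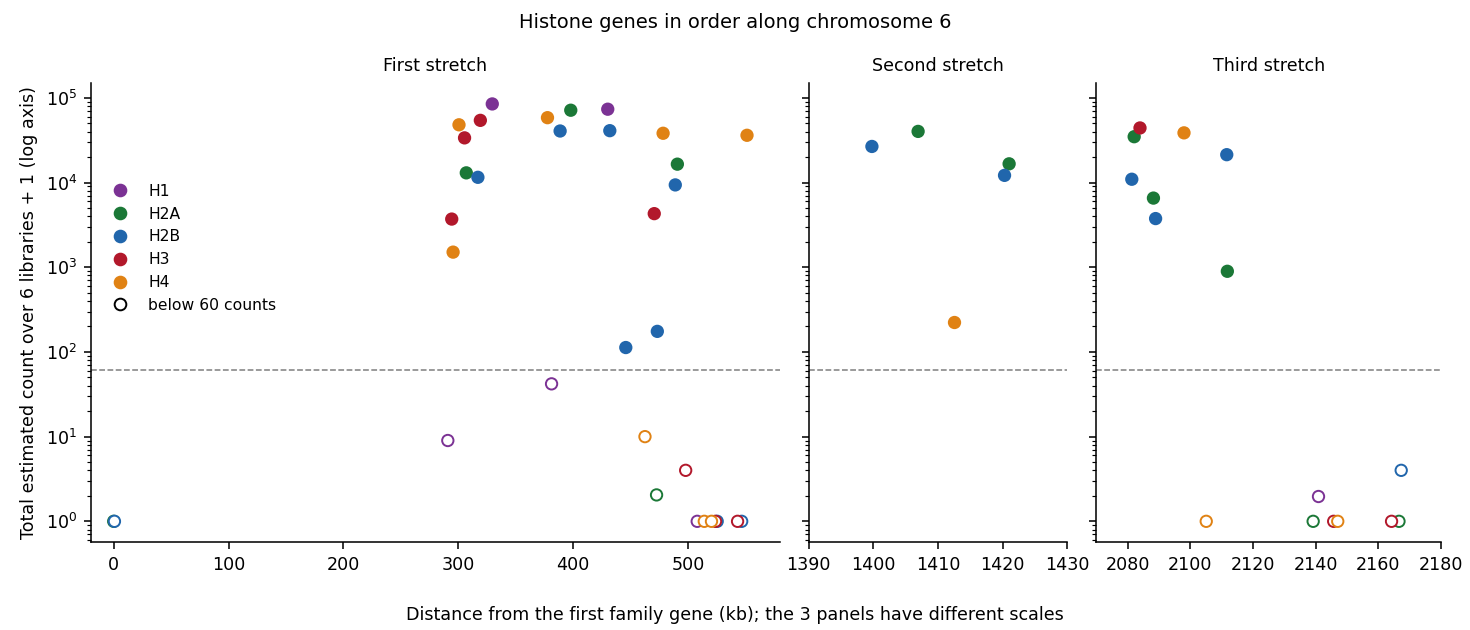
Total estimated count over the 6 libraries plus 1 (log axis) of the family genes on chromosome 6 against their distance in kb from the first of them, in 3 panels of different scale; filled points are members, open points genes under 60 counts (dashed line), colours the histone class. Open points sit together near 498 to 547 kb and near 2139 to 2167 kb, beside members such as HIST1H2AE with 16497 counts.

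Promoter windows from RefSeq (GRCh38.p14, 250 bases before to 50 after the start) were found for 43 members and searched on both strands for 5 motifs long described for histone genes. GGTCCG, from the H4 subtype element, was present in 8 of 8 H4 windows, against 11.3% of all 35116 windows of this length. CCAAT was present in 36 members (83.7%, against 34.6% of all windows), in every H1, H2A, H2B and H3 window but in 1 of the 8 H4 windows. The octamer ATTTGCAT was in 10 of 14 H2B and 7 of 12 H2A windows (1.77% of all windows). Windows of neighbouring genes can overlap and both strands were searched, so the same match can count for both genes. The HIST1H2BJ window, for example, reaches past the annotated start of HIST1H2AG (27133042, plus strand). The identical windows of HIST2H4A and HIST2H4B also count separately, so these counts are not of independent promoters. TATAAA was in 30 members (69.8%, against 11.5%) and AAACACA, the H1 box, in both H1 windows (5.64% of all windows). Genes under the minimum held the same motifs at like shares, for example CCAAT in 19 of 22 and TATAAA in 14 of 22. The window of HIST2H4B is shown as the promoter of the member with the largest difference, that of HIST1H4I as a second H4 promoter, and those of HIST1H2BJ and HIST1H2BH as H2B promoters of a gene with reads and of one listed at 0, with the limit on such rows given above. Capitals mark matches on either strand, which can run together.
HIST2H4B promoter: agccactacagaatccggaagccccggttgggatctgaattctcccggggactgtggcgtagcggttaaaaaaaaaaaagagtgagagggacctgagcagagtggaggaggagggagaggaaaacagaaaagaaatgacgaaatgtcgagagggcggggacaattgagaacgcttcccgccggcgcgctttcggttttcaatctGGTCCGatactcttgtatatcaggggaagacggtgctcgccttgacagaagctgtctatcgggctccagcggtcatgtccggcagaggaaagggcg
HIST1H4I promoter: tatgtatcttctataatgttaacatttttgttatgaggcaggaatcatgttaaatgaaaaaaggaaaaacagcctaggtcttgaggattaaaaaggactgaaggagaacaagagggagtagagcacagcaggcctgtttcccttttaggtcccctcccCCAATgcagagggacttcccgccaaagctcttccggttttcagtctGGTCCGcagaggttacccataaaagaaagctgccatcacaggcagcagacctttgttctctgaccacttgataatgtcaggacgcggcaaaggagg
HIST1H2BJ promoter: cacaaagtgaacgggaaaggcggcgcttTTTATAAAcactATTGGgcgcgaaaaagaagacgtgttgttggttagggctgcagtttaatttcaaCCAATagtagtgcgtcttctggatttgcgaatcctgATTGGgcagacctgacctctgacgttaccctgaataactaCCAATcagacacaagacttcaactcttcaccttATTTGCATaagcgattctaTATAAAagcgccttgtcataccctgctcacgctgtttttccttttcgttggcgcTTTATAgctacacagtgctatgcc
HIST1H2BH promoter: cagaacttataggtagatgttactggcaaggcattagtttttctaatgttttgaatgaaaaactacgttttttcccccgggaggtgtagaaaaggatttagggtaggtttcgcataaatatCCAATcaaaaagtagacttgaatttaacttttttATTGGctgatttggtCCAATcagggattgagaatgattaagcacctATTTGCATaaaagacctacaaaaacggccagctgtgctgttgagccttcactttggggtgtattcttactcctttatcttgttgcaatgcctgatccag
These windows lie at chr1:149861110-149861409 (minus strand), chr6:27139032-27139331 (plus), chr6:27132746-27133045 (minus) and chr6:26251364-26251663 (plus). The HIST2H4A window is identical to that of HIST2H4B over all 300 bases. HIST1H2BJ at 112 CPM and HIST1H2BH, listed at 0, both hold CCAAT and ATTTGCAT, and a match describes letters only.

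The share of histone genes called different between SW-138 and SW-113 lay near that of all tested genes. Those that carry most of the histone reads were not among the called genes. By edgeR's quasi-likelihood test with Benjamini-Hochberg adjustment over 16905 genes, 3 of 46 members passed at 0.05, 2 higher and 1 lower in SW-138, and all 3 were H4 genes of low assigned level. Of all tested genes 6.82% passed (2.76% higher, 4.06% lower), so the members' count lies near the background. The median log2 fold change was 0.02 over the members and 0.01 over all tested genes. For 40 of the 46 members the 95% interval of the difference lay within 1.5-fold in either direction. All members passed the filter on low counts.

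HIST2H4B had 18.4, 19.9 and 18.6 CPM in SW-138 libraries, against 9.98, 5.66 and 7.94 CPM in SW-113 libraries. Every SW-138 library lay above every SW-113 library, which held for 27.9% of all tested genes in 1 direction or the other and, among the members, for the 3 that passed. Fold changes are edgeR's, and the standard errors that set the width of their intervals are limma-voom's. The log2 fold change was 1.28 ± 0.15 (SE; 95% interval 0.94 to 1.62; edgeR, Benjamini-Hochberg adjusted p = 0.0024), and it passed in each of the 6 fits that left out a library. This gene (ENSG00000270276, now H4C15, GRCh38 chromosome 1, 149854045 to 149861210, minus strand) and HIST2H4A (H4C14, 149832659 to 149839767, plus strand) share the coding sequence shown above.

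The split of the pair moved and its sum did not pass. HIST2H4A had 343, 439 and 463 CPM in SW-138 libraries and 399, 355 and 410 CPM in SW-113 libraries, which overlapped, with a log2 fold change of 0.10 ± 0.10 (SE; 95% interval -0.13 to 0.32). HIST2H4B took 5.10%, 4.34% and 3.85% of the pair in SW-138 libraries, against 2.44%, 1.57% and 1.90% in SW-113 libraries. The pair together had 361, 459 and 482 CPM in SW-138 libraries and 408, 360 and 418 CPM in SW-113 libraries. With identical copies summed, a choice made after seeing the data, the pair's log2 fold change was 0.13 (edgeR adjusted p = 0.475). HIST2H4B also overlaps HIST2H3A by 230 bases on the opposite strand, and HIST2H4A overlaps HIST2H3C likewise. The strand rule behind the counts is not given. A difference in the HIST2H4B transcript and a difference in how shared reads were divided cannot be told apart here.

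HIST1H4A (ENSG00000278637, now H4C1, chromosome 6, 26021679 to 26021990, plus strand) had 4.60, 5.21 and 4.45 CPM in SW-138 libraries, against 8.21, 6.59 and 8.19 CPM in SW-113 libraries. The groups did not overlap, and the log2 fold change was -0.69 ± 0.13 (SE; 95% interval -0.97 to -0.40; edgeR, Benjamini-Hochberg adjusted p = 0.00962). Its windows are unique, and the values rest on 164 to 192 estimated counts per SW-138 library and 316 to 333 per SW-113 library. Without SW-113 replicate 3 it did not pass (edgeR adjusted p = 0.0594), and over all 6 fits with 1 library removed the log2 fold change ran from -0.79 to -0.64.

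HIST1H4I (ENSG00000276180, now H4C9, chromosome 6, 27138588 to 27139881, plus strand) had 53, 48 and 44 estimated counts in SW-138 libraries, against 31, 28 and 23 in SW-113 libraries. As counts and as CPM every SW-138 library lay above every SW-113 library, and the log2 fold change was 1.01 ± 0.24 (SE; 95% interval 0.47 to 1.55; edgeR, Benjamini-Hochberg adjusted p = 0.0438). It passed in none of the 6 fits that left out a library, where the log2 fold change ran from 0.92 to 1.19 and the edgeR adjusted p from 0.0607 to 0.154. Its level was 3.11 CPM per kb of coding sequence, below every other H4 member.

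**Figure D3:**
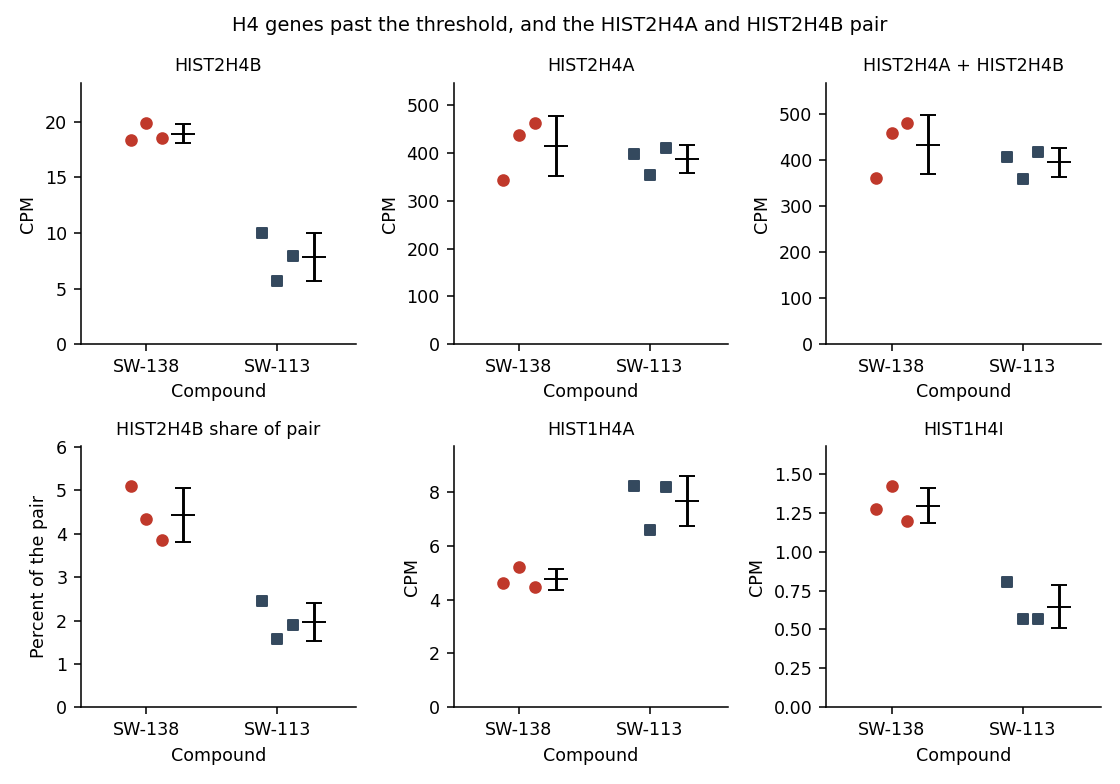
Values in each library of the 3 H4 genes past the threshold, of HIST2H4A, of the pair summed (CPM) and of the HIST2H4B share of the pair (percent), with SW-138 circles left and SW-113 squares right; the bar beside each group is mean ± SD (n = 3). HIST2H4B and its share lie higher in every SW-138 library, and the summed pair overlaps between compounds.

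The H4 genes that carry most H4 reads did not pass. HIST1H4C had 234, 242 and 253 CPM in SW-138 libraries and 241, 224 and 264 CPM in SW-113 libraries, a log2 fold change of 0.00 ± 0.06 (SE; 95% interval -0.14 to 0.14). HIST1H4B lay at 174, 209 and 222 CPM in SW-138 libraries and 208, 172 and 224 CPM in SW-113 libraries. HIST1H4J, HIST1H4E, HIST1H4H and HIST4H4 had log2 fold changes from -0.02 to 0.10, and the windows of HIST1H4J are shared as described. The summed H4 level was 1397 ± 176 CPM in SW-138 libraries and 1353 ± 117 CPM in SW-113 libraries (SD, n = 3 each).

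Neither linker histone passed by edgeR, DESeq2 or limma-voom. At an unadjusted p under 0.05 there were 0 by edgeR, 1 by DESeq2 and 0 by limma-voom. HIST1H1C had 325, 402 and 405 CPM in SW-138 libraries and 334, 315 and 353 CPM in SW-113 libraries. The groups overlapped, and the log2 fold change was 0.18 ± 0.08 (SE; 95% interval -0.01 to 0.36; edgeR adjusted p = 0.251). Without SW-138 replicate 1 it was 0.28 and passed (edgeR adjusted p = 0.0468). HIST1H1E was at 0.07 ± 0.07.

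By edgeR, DESeq2 or limma-voom 0 of the 13 H2A members passed, 1 had an unadjusted p under 0.05 and the libraries overlapped in all 13. Among all tested genes 27.9% showed no overlap. HIST2H2AA3 had 336, 415 and 449 CPM in SW-138 libraries and 375, 321 and 379 CPM in SW-113 libraries (log2 fold change 0.16 ± 0.10, SE). HIST1H2AC was at 0.07 ± 0.08 and HIST1H2AG at 0.05 ± 0.09. HIST1H2AK had the difference farthest from 0 and the low unadjusted p, with 3.07 ± 0.744 CPM in SW-138 libraries against 4.28 ± 0.582 CPM in SW-113 libraries (-0.47 ± 0.18; edgeR adjusted p = 0.16). It passed when genes with 1 count in 1 library were kept (edgeR adjusted p = 0.0361). With a replicate block it passed too (edgeR adjusted p = 0.0487). All windows of HIST1H2AK are shared with HIST1H2BN, as described.

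By edgeR, DESeq2 or limma-voom 0 of the 14 H2B members passed, 0 had an unadjusted p under 0.05, and their log2 fold changes ran from -0.46 to 0.21. HIST2H2BE, HIST1H2BD and HIST1H2BC were at 0.02 ± 0.10, -0.08 ± 0.08 and -0.02 ± 0.08 (SE). HIST1H2BF had the value farthest from 0, -0.46 ± 0.32, at 0.647, 0.710 and 0.462 CPM in SW-138 libraries against 1.14, 0.625 and 0.762 CPM in SW-113 libraries. The libraries overlapped, and at this depth a 1.5-fold difference in HIST1H2BF was not detectable, the 95% interval running from -1.17 to 0.24.

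By edgeR, DESeq2 or limma-voom 0 of the 7 H3 members passed, 0 had an unadjusted p under 0.05, and the libraries overlapped in all 7. Among all tested genes 27.9% showed no overlap. The rows of HIST2H3A and HIST2H3C each had 205, 265 and 272 CPM in SW-138 libraries and 233, 213 and 249 CPM in SW-113 libraries (0.09 ± 0.10, SE). HIST1H3C had 212, 246 and 249 CPM in SW-138 libraries and 224, 197 and 236 CPM in SW-113 libraries (0.11 ± 0.08). HIST1H3D was farthest from 0, at -0.21 ± 0.11 (95% interval -0.46 to 0.04), and its reads are shared as described.

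**Figure D4:**
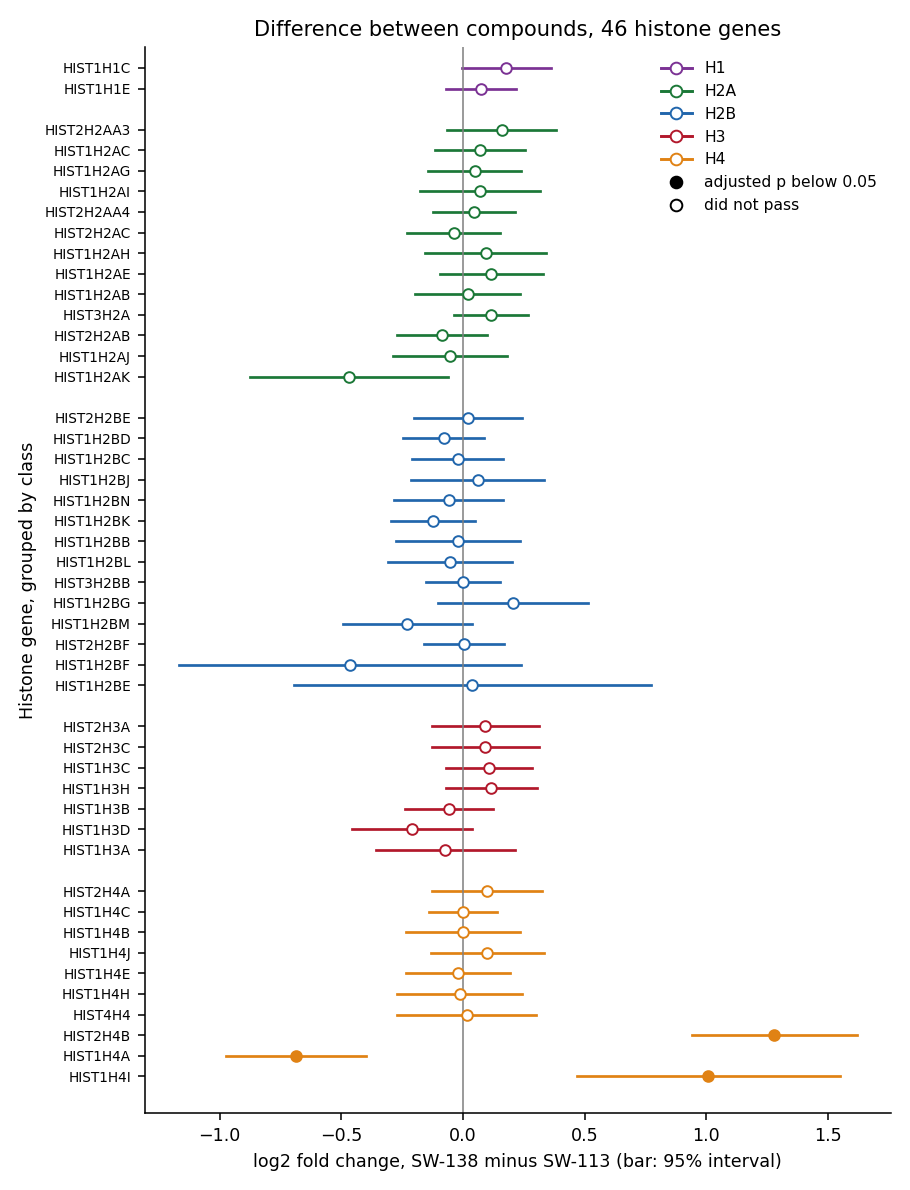
Log2 fold change, SW-138 minus SW-113, with its 95% interval for each member, grouped by class and ordered by level within the class; filled points passed an edgeR adjusted p of 0.05. The 3 filled points are H4 genes at 1.28, -0.69 and 1.01. Of the open points only HIST1H2AK, whose windows are shared with HIST1H2BN, has an interval clear of 0.

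Histone levels differed between libraries of the same compound, and most members were high or low in the same libraries. SW-138 replicate 1 was the lowest library for 21 members and SW-113 replicate 2 for 21 others, at medians of 88.9% and 89.1% of a member's mean. SW-138 replicate 3 was the highest for 17 members and SW-113 replicate 3 for 21, at medians of 108% and 108%. The summed members held 5012, 5978 and 6114 CPM in SW-138 libraries and 5529, 4957 and 5943 CPM in SW-113 libraries. The ratio of the means was 1.04, whereas the highest library was 1.23 times the lowest. As a share of all counts the members took 0.582% ± 0.0575 in SW-138 libraries and 0.535% ± 0.0490 in SW-113 libraries (SD, n = 3 each).

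In every class SW-138 replicate 1 and SW-113 replicate 2 were the 2 lowest libraries. H1 summed to 692 ± 67.1 CPM in SW-138 libraries and 632 ± 39.5 CPM in SW-113 libraries, and H2A to 1559 ± 174 CPM in SW-138 libraries and 1478 ± 138 CPM in SW-113 libraries (SD, n = 3 each). H2B summed to 962 ± 74.04 CPM in SW-138 libraries and 975 ± 110.0 CPM in SW-113 libraries, and H3 to 1091 ± 123 CPM in SW-138 libraries and 1038 ± 93.6 CPM in SW-113 libraries. In all 5 classes the libraries of the compounds overlapped. The 28 genes of DNA replication and S phase summed to 1892, 1927 and 2002 CPM in SW-138 libraries. In SW-113 libraries they summed to 1792, 1647 and 1898 CPM. The 14 genes of G2 and mitosis summed to 1702, 1672 and 1702 CPM in SW-138 libraries. In SW-113 libraries these summed to 1584, 1360 and 1709 CPM. In both lists SW-113 replicate 2 was lowest, whereas SW-138 replicate 1 lay above SW-113 replicates 1 and 2. The part of cell cycle phase in the histone values was not tested.

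**Figure D5:**
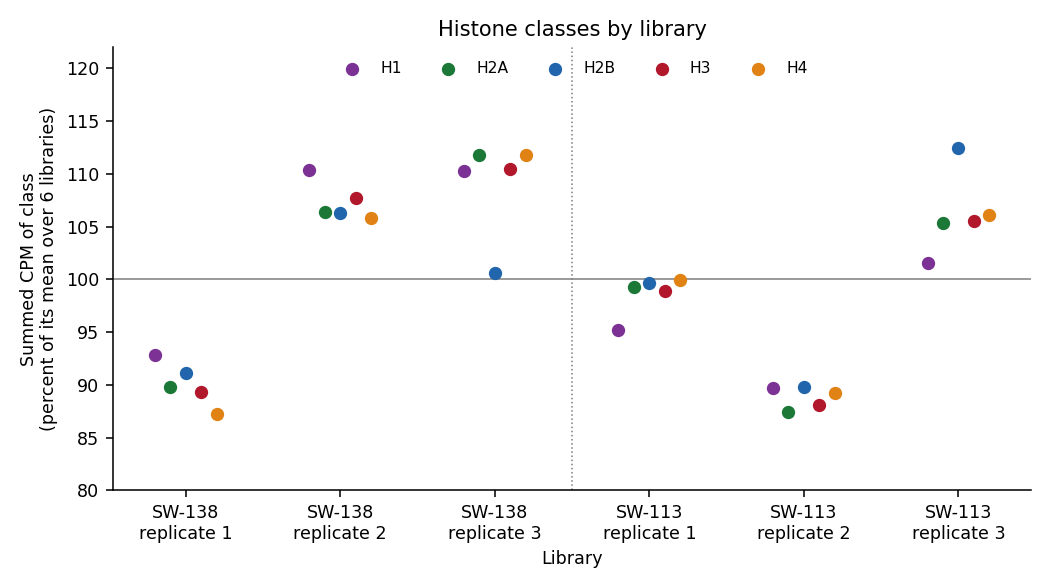
Summed CPM of each histone class in each library, as a percent of the mean of that class over the 6 libraries (line at 100), SW-138 libraries left and SW-113 libraries right of the dotted line; the axis starts at 80. SW-138 replicate 1 and SW-113 replicate 2 lie near 87% to 93% for every class, and each compound has libraries on both sides of the line.

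Among genes that make or handle histone mRNA, the share that passed differed between lists, beside 6.82% of all tested genes. Of 9 genes of histone gene transcription, 0 passed by edgeR, DESeq2 or limma-voom and 2 had an unadjusted p under 0.05. NPAT, the histone-specific coactivator, had 52.0, 57.1 and 53.0 CPM in SW-138 libraries and 47.2, 46.7 and 50.4 CPM in SW-113 libraries (0.17 ± 0.06, SE; edgeR adjusted p = 0.115), and its partner CASP8AP2 was at 0.17 ± 0.06 (edgeR adjusted p = 0.123). The groups did not overlap in either, as in 27.9% of all tested genes. The cyclin E genes CCNE1 and CCNE2 were at -0.19 ± 0.15 and -0.24 ± 0.11. The list's median log2 fold change was -0.02.

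Of 17 tested genes of stem-loop binding and cleavage, 1 was higher and 3 were lower (23.5%, against 6.82% of all tested genes), with a median of -0.04. RNU7-1, the U7 RNA, was listed at 0 in every library and could not be tested. ZNF473, a U7-associated zinc finger protein, had 22.0, 22.4 and 24.2 CPM in SW-138 libraries and 19.04, 19.04 and 17.9 CPM in SW-113 libraries (0.29 ± 0.07; edgeR adjusted p = 0.0269). LSM10, a ring subunit particular to the U7 snRNP, had 16.8, 19.8 and 18.1 CPM in SW-138 libraries and 21.3, 23.7 and 22.4 CPM in SW-113 libraries (-0.30 ± 0.08; edgeR adjusted p = 0.0429). The other 2 were SNRPF (-0.33 ± 0.07) and SNRPG (-0.26 ± 0.06), ring subunits that U7 shares with spliceosomal snRNPs. In none of these 4 did the groups overlap, which held for 27.9% of all tested genes. LSM11, the second U7-specific subunit, was at 0.21 ± 0.07 (edgeR adjusted p = 0.0925) and SLBP, with 56.9, 54.8 and 55.9 CPM in SW-138 libraries and 60.5, 60.3 and 57.8 CPM in SW-113 libraries, at -0.09 ± 0.05; neither passed.

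Of 10 genes of histone mRNA decay 1 passed. LSM4, a subunit of the decay-associated LSM ring, was lower (-0.24 ± 0.05; edgeR adjusted p = 0.0198). ERI1, the exonuclease that trims the stem-loop, was at 0.07 ± 0.06. Of 24 chaperones and deposition factors 1 passed (4.17%, against 6.82% of all tested genes). CHAF1B, a subunit of the assembly factor CAF-1, was higher, with 22.8, 21.8 and 21.5 CPM in SW-138 libraries and 19.1, 15.5 and 18.2 CPM in SW-113 libraries (0.32 ± 0.08; edgeR adjusted p = 0.0435). The medians of these lists were 0.03 and 0.01.

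In the list of replication-independent histones, the variants H2AZ1 (-0.04 ± 0.05), H2AX (-0.08 ± 0.07), H3-3A (-0.07 ± 0.06) and H3-3B (0.05 ± 0.05) did not pass. The median of its 14 tested genes was 0.00. HIST3H2A and HIST3H2BB are on this list and, by their names, also among the 46 members.

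Of 28 genes of DNA replication and S phase, 4 were higher and 1 was lower, with a median of 0.11. Of the list 17.9% passed, against 6.82% of all tested genes, of which 2.76% were higher and 4.06% lower. The median over all tested genes was 0.01. The helicase subunits MCM2 (0.25 ± 0.05), MCM3 (0.30 ± 0.06) and MCM6 (0.23 ± 0.05) and the polymerase gene POLE (0.30 ± 0.07) were higher. PCNA, the sliding clamp, was lower, with 86.2, 89.9 and 92.6 CPM in SW-138 libraries and 102, 102 and 109 CPM in SW-113 libraries (-0.22 ± 0.05; edgeR adjusted p = 0.0316). Of 14 genes of G2 and mitosis, 0 passed by edgeR, 2 had an unadjusted p under 0.05 and 1 passed by DESeq2, with a median of 0.09. Each of the 11 calls named in these lists was lost in at least 4 of the 6 leave-one-out fits, in every case including that without SW-113 replicate 3, while the direction held in all fits. With scaling by total count alone LSM10, SNRPF, SNRPG, LSM4 and PCNA did not pass, and LSM10 was also lost with upper quartile scaling.

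The libraries held 32771670 to 50871623 estimated counts. SW-138 replicate 2 lay far from the other 5 along the leading principal axis (32.2% of variance), yet it was the lowest library for 0 members. Stable noncoding RNAs took 7.33% to 10.0% of the counts in SW-138 libraries and 11.1% to 12.6% in SW-113 libraries. Of 15 listed RNAs without a poly(A) tail outside the histones, 8 were at 0 in every library, among them RNU4-1 and VTRNA1-1. Why they were at 0 was not tested. Of the 7 tested, RN7SL1 (-0.74 ± 0.10) and RN7SL2 (-0.77 ± 0.11) were lower, as were 4.06% of all tested genes. The list's median was -0.20, and the part of these RNAs in the histone values was not tested. Without mitochondrial and stable noncoding RNAs the same 3 members passed. Mesenchymal VIM lay at 3704 to 3861 CPM in SW-138 libraries and 3329 to 3675 CPM in SW-113 libraries. The 12 markers of epithelial, blood, endothelial, muscle and neuronal cells summed to 0.562 to 0.815 CPM in SW-138 libraries and 0.424 to 0.754 CPM in SW-113 libraries, with KRT5, KRT14 and MYOD1 listed at 0 throughout. Of the other mesenchymal markers, THY1 had 15 counts in all and S100A4 had 206, whereas FN1, CD44, MMP14 and PLAU had 108939 to 366945. In bulk RNA, fewer cells in S phase and less histone mRNA per such cell cannot be told apart.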

How the data were processed

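RNA from 6 libraries was measured, 3 per compound, and the authors deposited 1 table of expected counts per gene and library. Build GRCh38 and the tools RSEM 1.3.3, Bowtie2 2.5.4, Trimmomatic 0.39 and DESeq2 1.42.0 are listed, in no stated order, per the submitters' processing notes. The annotation and strand rule behind the counts are not given in the sources used here.

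Expected counts were rounded, filtered with filterByExpr (16905 of 60675 genes) and tested with edgeR 4.0.16 (quasi-likelihood, TMM, no block, Benjamini-Hochberg over all tested genes). Standard errors came from limma-voom (limma 3.58.1, R 4.3.3), and 95% intervals are edgeR's log2 fold change plus or minus that error times its t quantile. CPM used TMM-scaled totals. The fit was tested on simulated data. The median standard error was 0.09 (log2). Coordinates, transcripts and coding sequences came from GENCODE 29, promoters from RefSeq (GRCh38.p14). Figures used matplotlib 3.10.9.

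The members, the 10 gene lists (152 entries) and the tests were chosen with earlier results of these data known. Named were all members past the threshold, the 3 of highest CPM and the 1 of largest change per class, those nearest the minimum count, up to 4 called genes per list, and NPAT, SLBP and other fixed genes. Alternatives were other scalings, filters and tools, a replicate block, single libraries left out, and identical copies summed. No 2 libraries agreed within sampling noise. The result of 1 listed gene is not reported here.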

Additional observations from a re-analysis of the deposited data

How the results depend on the processing

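Of all genes, edgeR called 1153 (466 higher, 687 lower in SW-138), 2060 when genes with 1 count in 1 library were kept, and 303 to 1616 with 1 library left out. Scaling by total count alone moved the share of higher calls to 71.0%, against 40.4% with TMM factors. Of the members, 3 were called, 1 to 3 with 1 library left out, and of the listed genes 14, 30 with the filter of 1 count in 1 library and 2 to 19 with 1 library left out. The lowest of these counts came without SW-113 replicate 3, and SW-138 replicates 1 and 3 and SW-113 replicates 1 and 2 also moved the counts over all genes (509, 605, 530 and 458) and over the lists (6, 3, 4 and 4) by more than 1.5 times. HIST2H4B passed in all 16 alternatives that kept it as a row, from 1.08 to 1.48, and its call ended when identical copies were summed. HIST1H4I was removed by a mean of at least 1 CPM and had no adjusted p in DESeq2. The differences of the H2B and H4 class sums (log2 -0.02 and 0.05) changed sign with single libraries left out, from -0.09 to 0.07 and from -0.03 to 0.14, within the spread between libraries. The causes of these changes were not tested.

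Same-numbered libraries of the 2 compounds correlated at 0.05, 0.21 and 0.05 in their deviations, against -0.14 to 0.09 for the other combinations. These ranges overlap, so the numbers were not shown to pair the samples. A replicate block gave 2363 genes, 4 members (HIST1H2AK lower, -0.49, beside the 3) and 31 listed genes.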
